A study of Mus musculus with 18 samples.

Results

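The dual-specificity MAP kinase phosphatases are enzymes that switch off MAP kinases, and 9 of their genes were examined here, Dusp1, Dusp2, Dusp3, Dusp4, Dusp5, Dusp6, Dusp7, Dusp10 and Dusp16. They were chosen by symbol, each matched to its mouse Ensembl gene number, out of 13598 genes with a value in the files. All 9 were among the 9707 genes tested, which are those with 1 FPKM or more in 3 or more of the 18 libraries. FPKM is fragments per length of transcript and per size of library, so levels of different genes are compared per length.

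Peritoneal macrophages from mice of 3 genotypes, TLR4-WT, TLR4-K730R and TLR4-K810R, were sequenced without treatment by LPS (control) or after 6 h in 100 ng/ml LPS, in 6 groups of 3 libraries. TLR4 is the receptor for bacterial lipopolysaccharide (LPS), and in the knock-in mice, made with CRISPR/Cas9, the named lysine of its intracellular TIR domain is replaced by arginine. The comparison of genotypes addresses whether these lysines, examined by the study as sites of acetylation, bear on the response to LPS. The control groups were TLR4-WT, TLR4-K730R and TLR4-K810R macrophages without LPS, and the LPS groups were the same genotypes with it. The cells were elicited with thioglycolate, and neither age nor sex of the mice is given. Whether the 3 libraries of a group came from separate mice is not stated, so p-values measure the spread between libraries, which may be technical. The files show no base at either lysine codon, so the genotype labels could not be tested on them.

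MAP kinases (ERK, JNK and p38) are activated within minutes of TLR4 engagement by phosphorylation on a threonine and a tyrosine of the activation loop. Dual-specificity phosphatases remove both phosphates, and many of their genes are themselves induced by the pathway that they end, which makes them feedback inhibitors. The family is divided into inducible nuclear enzymes (Dusp1, Dusp2, Dusp4 and Dusp5), cytoplasmic enzymes directed at ERK (Dusp6 and Dusp7), enzymes directed at JNK and p38 (Dusp10 and Dusp16) and small atypical enzymes without the kinase-binding domain (Dusp3). In macrophages, Dusp1 is best known for limiting p38 and JNK and with them the output of cytokines.

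The files list FPKM for transcript events, not for genes, in 80071 to 90401 rows per library, and a gene was given the sum of its first-exon events or that of its last-exon events, whichever was larger. Without read counts the depth is unknown, and counting error cannot be stated. Correlations between libraries of a group were 0.961 to 0.975, and those between groups reached 0.974. The macrophage markers summed to 11633 to 14785 FPKM in the control libraries and to 7289 to 10057 FPKM in the LPS libraries, although Itgam was listed at 0 in every library. Cd14 was listed at 0 in 5 of the 6 groups. T cell markers summed to at most 0.958 FPKM, B cell markers to at most 3.66, mast cell markers to at most 3.80 and eosinophil markers to at most 2.79.

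Among control macrophages Dusp3 had the highest level of the family and Dusp10 was at the low end. In TLR4-WT control libraries the mean levels were 53.7 ± 3.55 FPKM (SD, n = 3) for Dusp3, 45.0 ± 3.40 for Dusp1 and 16.1 ± 2.22 for Dusp7. Dusp6 and Dusp4 followed at 9.56 ± 0.528 and 8.93 ± 2.42 FPKM. The levels of Dusp5, Dusp16, Dusp2 and Dusp10 were between 3.38 ± 0.415 and 1.24 ± 0.292 FPKM, and each of these overlapped its neighbour in the order. The first 3 places, Dusp3, Dusp1 and Dusp7, were the same in TLR4-K730R and TLR4-K810R control libraries, with no overlap between neighbours. These places rest on first-exon events. The last-exon sums of Dusp3 and Dusp7 reached at most 7.83 and 1.18 FPKM in any library, and Dusp1 has first-exon events alone. After LPS the order changed. Dusp1 held the first place in all 3 genotypes, and in TLR4-WT it made up 50.2% of the summed mean FPKM of the 9 genes. Dusp6 and Dusp4 came next in all 3 genotypes, at 18.5 ± 3.62 and 17.2 ± 3.03 FPKM in TLR4-WT, where their libraries overlapped. Dusp3 dropped to the fifth place in TLR4-WT and TLR4-K730R and to the fourth in TLR4-K810R. In TLR4-WT and TLR4-K730R its libraries overlapped those of its neighbours in the order, Dusp16 and Dusp7. Dusp10 had the lowest mean in each of the 6 groups.

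**Figure D1:**
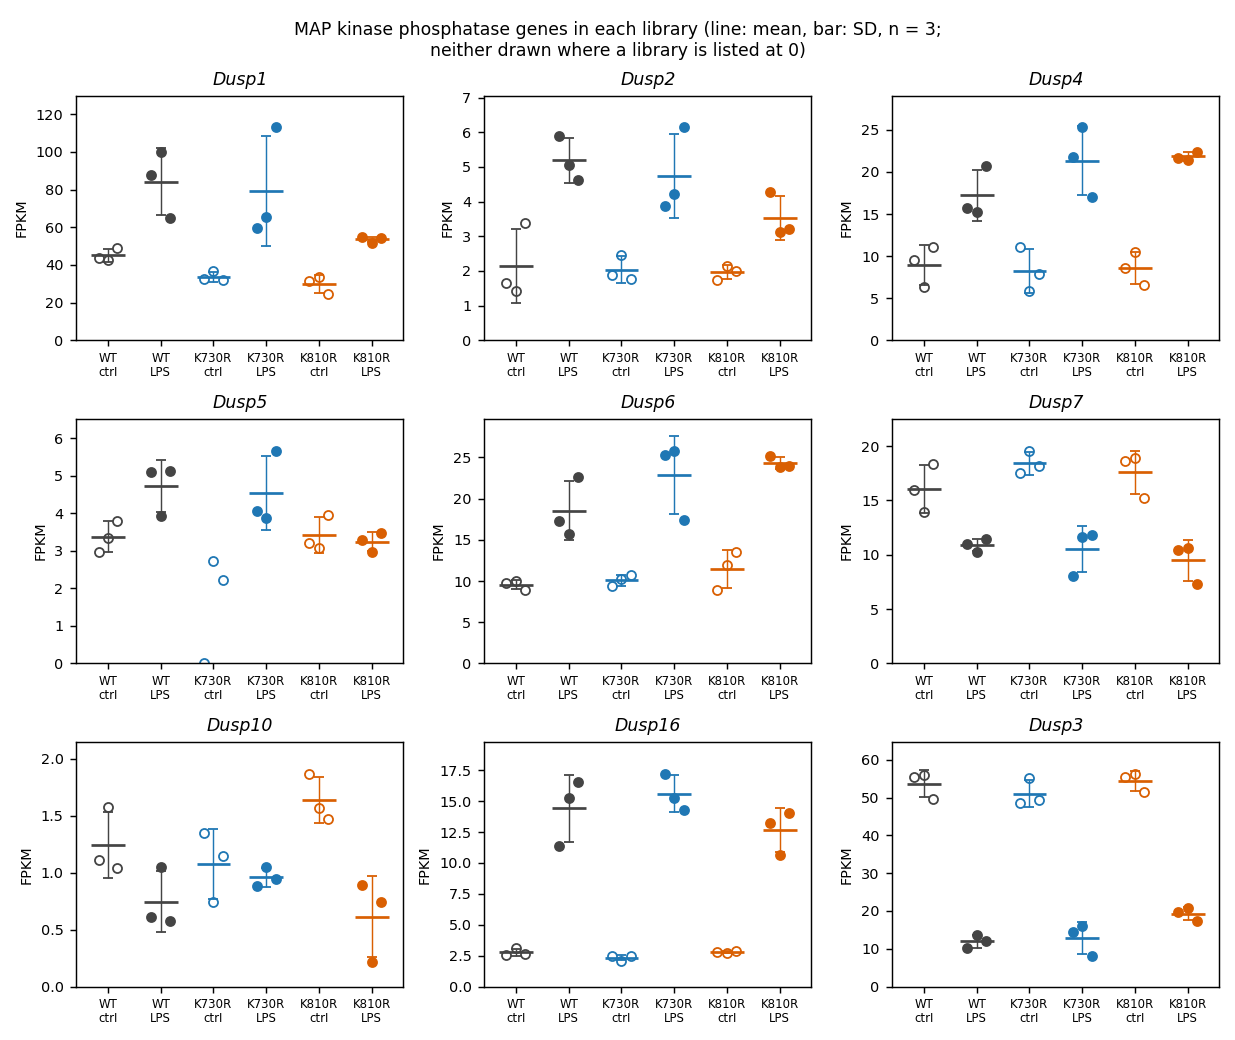
Level of each of the 9 phosphatase genes in FPKM (y axis, from 0) in each library of the 6 groups (x axis, open points control, filled points LPS). Horizontal lines are group means and bars the SD of 3 libraries, except for Dusp5 in TLR4-K730R control, where 1 library is listed at 0 and no mean is drawn. The LPS libraries of Dusp16 and Dusp3 lie apart from the control libraries in all 3 genotypes, above them for Dusp16 and below them for Dusp3.

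The plot of levels by library sets 7 of the 9 genes apart by the side on which their LPS libraries lay. LPS libraries lay above control libraries in each genotype for Dusp1, Dusp2, Dusp4, Dusp6 and Dusp16, and below them for Dusp7 and Dusp3. For Dusp5 control and LPS libraries overlapped in TLR4-K810R, and for Dusp10 in TLR4-WT and TLR4-K730R.

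The sequences upstream of 4 members are shown because these genes span the range of responses to LPS, from the rise of Dusp16 and Dusp1 through the mixed values of Dusp5 to the fall of Dusp3. They are RefSeq promoter windows on GRCm38.p6, which begin 250 bases before the RefSeq start. Those of Dusp1, Dusp5 and Dusp3 are printed up to the base before a first exon listed in the files, and that of Dusp16 up to the base before the RefSeq start, whereas its outer listed first exon begins further in, at 134792475. Capitals mark matches to the cAMP response element (CRE, TGACGTCA), to its half-site (TGACG) and to the CArG box of serum response factor, searched on both strands. A CRE holds the half-site on both strands, so 2 of the 3 half-site matches in the Dusp1 window lie in its CRE.
Dusp1, chr17:26508520-26508722, minus strand: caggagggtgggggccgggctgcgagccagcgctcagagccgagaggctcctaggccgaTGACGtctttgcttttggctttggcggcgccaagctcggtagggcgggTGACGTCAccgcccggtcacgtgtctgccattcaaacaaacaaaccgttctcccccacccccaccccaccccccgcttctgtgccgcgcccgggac
Dusp5, chr19:53528895-53529108, plus strand: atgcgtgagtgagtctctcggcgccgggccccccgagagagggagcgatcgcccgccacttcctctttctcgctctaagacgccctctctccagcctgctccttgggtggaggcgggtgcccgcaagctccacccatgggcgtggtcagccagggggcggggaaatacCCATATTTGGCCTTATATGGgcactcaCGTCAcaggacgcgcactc
Dusp16, chr6:134792629-134792878, minus strand: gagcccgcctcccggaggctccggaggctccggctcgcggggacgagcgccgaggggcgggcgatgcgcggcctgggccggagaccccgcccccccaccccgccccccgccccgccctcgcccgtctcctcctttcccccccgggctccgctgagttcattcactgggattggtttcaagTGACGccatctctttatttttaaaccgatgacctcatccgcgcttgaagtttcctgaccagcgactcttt
Dusp3, chr11:101984800-101985041, minus strand, before the inner of its 2 main first exons: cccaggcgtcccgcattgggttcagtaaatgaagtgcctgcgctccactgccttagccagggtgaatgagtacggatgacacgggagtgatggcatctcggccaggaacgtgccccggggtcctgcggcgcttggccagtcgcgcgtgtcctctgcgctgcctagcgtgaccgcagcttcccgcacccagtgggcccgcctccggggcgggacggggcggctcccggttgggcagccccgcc

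Windows were found for 8 of the 9 members, all but Dusp4. In the 250 bases before the RefSeq start, a CRE was present in 1 of the 8 windows (Dusp1), against 1.55% of 32851 RefSeq promoter windows. The half-site was present in 3 of the 8 (Dusp1, Dusp5 and Dusp16), against 17.8%, and a CArG box in 1 of the 8 (Dusp5, where 2 CArG boxes lie side by side), against 1.47%. None of the 8 windows held the AP-1 motif TGANTCA (6.75% of all windows), the letters TATAAA (12.4%) or an NF-kB site (7.25%). A match describes only these letters in this window. The GC content of the printed windows was 68% for Dusp1, 65% for Dusp5, 68.4% for Dusp16 and 69.8% for Dusp3.

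More members rose than fell with LPS in each genotype when all libraries were in the fit. In TLR4-WT macrophages 5 of the 9 genes rose (Dusp1, Dusp2, Dusp4, Dusp6 and Dusp16), 1 fell (Dusp3) and 3 did not pass the threshold (Dusp5, Dusp7 and Dusp10), by limma on log2(FPKM + 1) with an adjusted p below 0.01. Of all 9707 tested genes 34.3% passed it, 10.4% with a rise and 23.9% with a fall. In TLR4-K730R 6 members rose, the same 5 and Dusp5, and 2 fell, Dusp3 and Dusp7, against 9.32% of tested genes with a rise and 26.5% with a fall (35.8% in all). In TLR4-K810R 4 members rose (Dusp1, Dusp4, Dusp6 and Dusp16) and 3 fell (Dusp3, Dusp7 and Dusp10), against 9.08% and 19.7% (28.8% in all). Without LPS replicate 1 or 3 of TLR4-K810R the Dusp1 call was lost and the falls were kept, so rises did not outnumber falls there. Control and LPS libraries did not overlap for 8 of the 9 members in each genotype, against 55% of tested genes in TLR4-WT, 58.8% for TLR4-K730R and 52.5% for TLR4-K810R. The median difference over the 9 members was 0.87 on the log2(FPKM + 1) scale in TLR4-WT, 1.09 for TLR4-K730R and 0.61 for TLR4-K810R, and that over all tested genes was -0.28, -0.36 and -0.26.

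The fall of the median gene depends on the scale of the libraries. With median-of-ratios scaling the median over all genes was -0.01 in TLR4-WT, -0.04 for TLR4-K730R and -0.03 for TLR4-K810R. The calls over all genes then changed from 1012 rises and 2316 falls to 1496 and 1370 in TLR4-WT, from 905 and 2568 to 1497 and 1300 in TLR4-K730R, and from 881 and 1916 to 1196 and 1126 in TLR4-K810R. The 5, 6 and 4 rises among the members, and the fall of Dusp3, were called under either scale, whereas the falls of Dusp7 and Dusp10 were not called under the second. Neutrophil markers, of which 6 of 7 had a value, summed to 25.4 to 46.4 FPKM in control and to 169.9 to 245 FPKM in LPS libraries. Of the 3 that could be tested, S100a8 (22.1 to 45.1 FPKM in control and 164.7 to 239 FPKM in LPS libraries) and Camp (at most 0.792 and at least 3.45 FPKM) rose in each genotype, while Retnlg fell in TLR4-WT by 1.58 (limma adjusted p = 7.46e-05). The listed markers Ly6g, Mpo and Ngp reached at most 0.644 FPKM in any library, with all 3 at 0 in every TLR4-WT library, and Elane was at 0 throughout. Among the mesothelial and fibroblast markers Dcn rose in TLR4-WT by 1.77 (adjusted p = 0.000651), as 1 of 5 tested, and of 3 tested intestinal epithelial markers Epcam and Fabp1 fell in TLR4-K810R, with differences of -1.02 and -2.18 (adjusted p = 0.00626 and 0.00379). Of 6 tested macrophage markers, 1 rose and 4 fell in TLR4-WT and in TLR4-K730R, and 2 rose and 1 fell in TLR4-K810R, while 1 of 2 tested B cell markers fell in each mutant. The part of other cells in the responses was not tested, and in bulk RNA fewer cells of a type and less RNA per cell cannot be told apart.

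**Figure D2:**
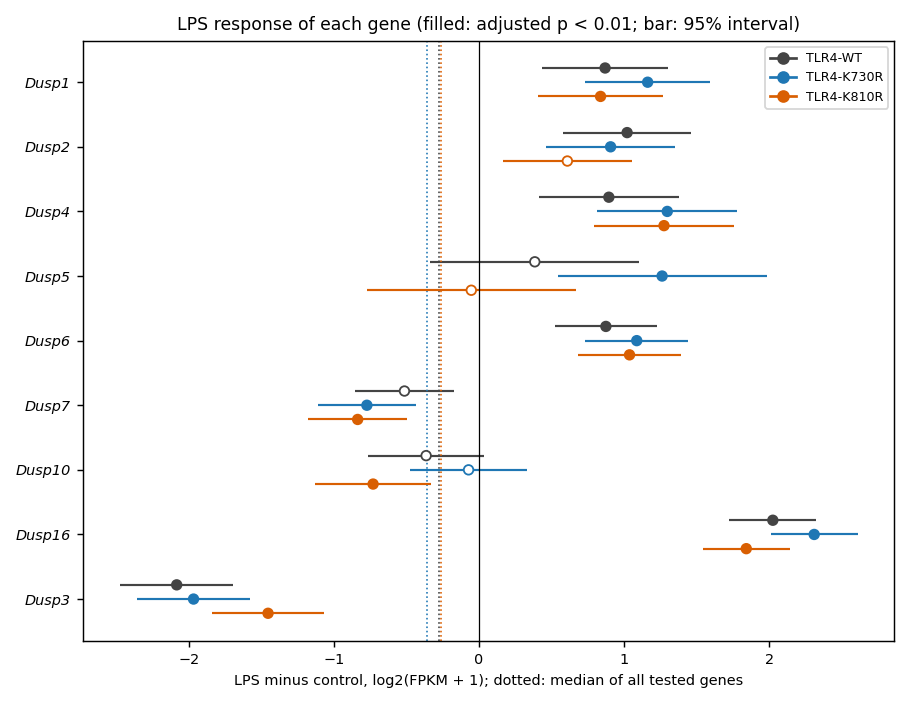
LPS minus control for each of the 9 genes (y axis) on the log2(FPKM + 1) scale (x axis) in TLR4-WT, TLR4-K730R and TLR4-K810R, with 95% intervals from limma and filled points where the adjusted p was below 0.01. Dotted lines mark the median of all tested genes (-0.28, -0.36 and -0.26). Dusp16 lies farthest to the right and Dusp3 farthest to the left in each genotype.

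Of the inducible nuclear members, Dusp1, Dusp2 and Dusp4 rose in TLR4-WT. Dusp1, the main brake on p38 and JNK, had the highest FPKM of the family after LPS. It lies on chromosome 17 from 26505590 to 26562128 on the minus strand of GRCm38. In TLR4-WT the control libraries measured 43.9, 42.4 and 48.9 FPKM and the LPS libraries 87.9, 100.1 and 64.7 FPKM. The TLR4-K730R libraries held 32.3, 36.5 and 31.7 FPKM as control and 59.5, 65.3 and 113 FPKM after LPS. In TLR4-K810R the values were 31.3, 33.4 and 24.6 FPKM without and 54.7, 51.8 and 54.1 FPKM with LPS. LPS libraries were higher than control libraries in every genotype, but the LPS libraries differed among themselves in TLR4-WT and TLR4-K730R and lay close together in TLR4-K810R. The ratio of mean FPKM was 1.87, 2.37 and 1.80 in TLR4-WT, TLR4-K730R and TLR4-K810R. The log2(FPKM + 1) differences were 0.87 ± 0.20 (SE), 1.16 and 0.84, with limma adjusted p of 0.00244, 0.000210 and 0.00367. The call in TLR4-WT was lost without control replicate 2 (adjusted p = 0.0106), LPS replicate 1 (0.0110) or LPS replicate 2 (0.0160). The call in TLR4-K810R was lost without control replicate 3 (adjusted p = 0.0222) or without LPS replicate 1, 2 or 3 (0.0130, 0.0101 and 0.0129).

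Dusp2, a nuclear phosphatase abundant in activated leukocytes, was low in every group. Control libraries of TLR4-WT were at 1.64, 1.43 and 3.38 FPKM, and LPS libraries of the same genotype at 5.89, 5.06 and 4.62 FPKM. For TLR4-K730R the levels were 1.88, 2.47 and 1.77 FPKM as control and 3.88, 4.23 and 6.14 FPKM after LPS. Without LPS TLR4-K810R libraries gave 1.73, 2.13 and 2.01 FPKM, and with LPS they gave 4.27, 3.12 and 3.20 FPKM. The LPS libraries were the higher ones in each genotype. The highest control and lowest LPS libraries were at 2.13 and 3.12 FPKM in TLR4-K810R and at 3.38 and 4.62 FPKM in TLR4-WT. Its log2(FPKM + 1) difference was 1.02 in TLR4-WT (limma adjusted p = 0.000820) and 0.91 in TLR4-K730R (adjusted p = 0.00203). In TLR4-K810R the difference was 0.61 with an adjusted p of 0.0287, which missed the threshold. The TLR4-K730R call was lost without LPS replicate 3 (adjusted p = 0.0138) or control replicate 3 (0.0102), and the TLR4-WT call when only the 2 groups compared were fitted (adjusted p = 0.0137).

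Dusp4, a nuclear phosphatase of ERK and JNK closely related to Dusp1, was between the abundant and the scarce members. In TLR4-WT the control libraries measured 9.49, 6.29 and 11.0 FPKM and the LPS libraries 15.7, 15.3 and 20.7 FPKM. The TLR4-K730R libraries held 11.1, 5.80 and 7.88 FPKM as control and 21.7, 25.3 and 17.1 FPKM after LPS. In TLR4-K810R the values were 8.61, 10.5 and 6.62 FPKM without and 21.7, 21.4 and 22.4 FPKM with LPS. The lowest LPS library was above the highest control library in each genotype, and the 3 LPS libraries of TLR4-K810R were nearly alike. Its log2(FPKM + 1) differences were 0.89 in TLR4-WT, 1.30 for TLR4-K730R and 1.27 for TLR4-K810R, with limma adjusted p of 0.00432, 0.000211 and 0.000303. The TLR4-WT call was lost without control replicate 2 (adjusted p = 0.0277), without LPS replicate 3 (0.0220) or with only those 2 groups fitted (0.0145). Both TLR4-K730R and TLR4-K810R calls held under all 18 alternatives.

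Dusp5, a nuclear phosphatase of ERK alone, passed the test in TLR4-K730R alone of the 3 genotypes. Control libraries of TLR4-WT were at 2.98, 3.34 and 3.81 FPKM, and LPS libraries of the same genotype at 5.12, 3.92 and 5.13 FPKM. For TLR4-K730R the levels were 0, 2.72 and 2.22 FPKM as control and 4.08, 3.86 and 5.67 FPKM after LPS. Without LPS TLR4-K810R libraries gave 3.22, 3.08 and 3.96 FPKM, and with LPS they gave 3.30, 2.97 and 3.47 FPKM. Control and LPS libraries were apart in TLR4-WT and TLR4-K730R and overlapped in TLR4-K810R, and control replicate 1 of TLR4-K730R was listed at 0. The difference on the log2(FPKM + 1) scale was 0.38 in TLR4-WT (limma adjusted p = 0.372). In TLR4-K730R it was 1.26 (adjusted p = 0.00600), and without the library listed at 0 it was 0.66 (adjusted p = 0.00597). The TLR4-K730R call was lost without LPS replicate 1, 2 or 3 (adjusted p = 0.0134, 0.0110 and 0.0288) and in 7 of 17 alternatives in all. In TLR4-K810R the difference was -0.05 (adjusted p = 0.917), and median-of-ratios scaling gave 0.16 there. Dusp5 has only a first-exon event in the files, and Dusp1 likewise has first-exon events alone, so their other end could not be read.

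Of the cytoplasmic ERK phosphatases, LPS libraries lay above control libraries for Dusp6 and below them for Dusp7 in all 3 genotypes. Dusp6, an ERK-induced feedback inhibitor of ERK, rose in all 3 genotypes. In TLR4-WT the control libraries measured 9.76, 9.96 and 8.96 FPKM and the LPS libraries 17.3, 15.7 and 22.6 FPKM. The TLR4-K730R libraries held 9.36, 10.2 and 10.7 FPKM as control and 25.3, 25.8 and 17.4 FPKM after LPS. In TLR4-K810R the values were 8.96, 11.9 and 13.6 FPKM without and 25.1, 23.8 and 23.9 FPKM with LPS. No LPS library was as low as any control library, and the control libraries of the 3 genotypes overlapped one another. The ratio of mean FPKM was 1.94 in TLR4-WT, 2.27 for TLR4-K730R and 2.12 for TLR4-K810R. The log2(FPKM + 1) differences of 0.87, 1.09 and 1.04 had limma adjusted p of 0.000463, 5.95e-05 and 0.000114, and these calls held under all 18 alternatives.

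Dusp7, the close relative of Dusp6 that also acts on ERK, fell in TLR4-K730R and TLR4-K810R. Control libraries of TLR4-WT were at 16.0, 13.9 and 18.3 FPKM, and LPS libraries of the same genotype at 11.0, 10.3 and 11.5 FPKM. For TLR4-K730R the levels were 17.5, 19.6 and 18.1 FPKM as control and 8.04, 11.6 and 11.8 FPKM after LPS. Without LPS TLR4-K810R libraries gave 18.6, 18.9 and 15.3 FPKM, and with LPS they gave 10.5, 10.6 and 7.34 FPKM. The LPS libraries were below the control libraries in each genotype. These values come from first-exon events, as the last-exon event of Dusp7 reached at most 1.18 FPKM. Its log2(FPKM + 1) difference was -0.51 in TLR4-WT (limma adjusted p = 0.0149, which missed the threshold and was 0.00855 with library weights), -0.77 in TLR4-K730R (adjusted p = 0.000862) and -0.84 in TLR4-K810R (adjusted p = 0.000545). Relative to the median of all tested genes these differences were -0.24, -0.42 and -0.58. With median-of-ratios scaling none of the 3 passed the threshold, with adjusted p of 0.361, 0.0837 and 0.0155.

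Dusp16, the JNK- and p38-directed phosphatase that shuttles between nucleus and cytoplasm, had the largest rise of the 9 genes. It lies on chromosome 6 from 134715468 to 134792625 on the minus strand of GRCm38. In TLR4-WT the control libraries measured 2.56, 3.08 and 2.62 FPKM and the LPS libraries 11.4, 15.3 and 16.6 FPKM. The TLR4-K730R libraries held 2.45, 2.10 and 2.49 FPKM as control and 17.2, 15.3 and 14.3 FPKM after LPS. In TLR4-K810R the values were 2.81, 2.71 and 2.85 FPKM without and 13.3, 10.6 and 14.1 FPKM with LPS. The lowest LPS library of any genotype was above the highest control library, and the control libraries of all genotypes lay close together. The ratio of mean FPKM was 5.23 in TLR4-WT, 6.65 for TLR4-K730R and 4.54 for TLR4-K810R. On the log2(FPKM + 1) scale the differences were 2.02 ± 0.14 (SE), 2.31 and 1.84, with limma adjusted p of 1.03e-08, 2.01e-09 and 3.26e-08. These 3 calls held under all 18 alternatives of the processing. Dusp10, the other member directed at JNK and p38, had the lowest levels. It reached 1 FPKM in 10 of the 18 libraries, with 1.04 to 1.87 FPKM in TLR4-WT and TLR4-K810R control libraries and 0.739 to 1.34 in TLR4-K730R control. After LPS its range was 0.571 to 1.05 FPKM in TLR4-WT, 0.887 to 1.05 in TLR4-K730R and 0.215 to 0.887 in TLR4-K810R. Control and LPS libraries of Dusp10 overlapped in TLR4-WT and in TLR4-K730R but not in TLR4-K810R. Its difference was -0.37 in TLR4-WT (limma adjusted p = 0.123), -0.07 in TLR4-K730R (adjusted p = 0.772), where median-of-ratios scaling gave 0.13, and -0.73 in TLR4-K810R (adjusted p = 0.00547). The call in TLR4-K810R was lost with that scaling (adjusted p = 0.0301) and in 10 of 17 alternatives in all, among them without control replicate 1, 2 or 3 (adjusted p = 0.0246, 0.0138 and 0.0108) and without LPS replicate 2 (0.0345).

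Dusp3, a small atypical phosphatase that acts on ERK and JNK without a kinase-binding domain, had the largest fall. It lies on chromosome 11 from 101971143 to 101987013 on the minus strand of GRCm38. Control libraries of TLR4-WT were at 55.4, 56.0 and 49.6 FPKM, and LPS libraries of the same genotype at 10.1, 13.6 and 12.2 FPKM. For TLR4-K730R the levels were 48.6, 55.2 and 49.4 FPKM as control and 14.5, 15.9 and 7.97 FPKM after LPS. Without LPS TLR4-K810R libraries gave 55.4, 56.3 and 51.4 FPKM, and with LPS they gave 19.6, 20.7 and 17.4 FPKM. Every control library was at or above 48.6 FPKM and every LPS library at or below 20.7 FPKM, with the TLR4-K810R LPS libraries above the other LPS libraries. The mean control FPKM was 4.49 times the mean LPS FPKM in TLR4-WT, 3.99 times in TLR4-K730R and 2.83 times in TLR4-K810R. On the log2(FPKM + 1) scale the differences were -2.08 ± 0.18 (SE), -1.97 and -1.45, with limma adjusted p of 1.48e-07, 2.63e-07 and 9.56e-06. Relative to the median of all tested genes they were -1.81, -1.61 and -1.19. The fall was read from first-exon events, since the last-exon events of Dusp3 summed to only 0.0726 to 7.83 FPKM per library. With last-exon events alone the differences were -1.12, -0.11 and -0.02, and none passed the threshold (adjusted p = 0.263, 0.924 and 0.990).

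Dusp3 and Dusp16 each have 2 main first-exon events in the files, and these were set apart after their values were seen, so they are described without a test. For Dusp3 the outer first exon spans 101986867 to 101987013 and the inner one 101984612 to 101984799 on chromosome 11. In TLR4-WT LPS libraries the outer exon measured 8.89, 9.23 and 9.77 FPKM and the inner exon 1.06, 4.27 and 2.28 FPKM. In TLR4-K810R LPS libraries the outer exon measured 9.61, 12.1 and 8.82 FPKM and the inner exon 9.88, 8.43 and 8.44 FPKM. The outer exon thus overlapped between these genotypes and the inner one did not. The inner exon made up 20.2% ± 10.5 (SD, n = 3) of the first-exon FPKM in TLR4-WT after LPS and 46.6% ± 5.15 in TLR4-K810R after LPS. In the control groups its share was 29.4% ± 7.74 in TLR4-WT, 15.1% ± 9.99 for TLR4-K730R and 26.0% ± 5.52 for TLR4-K810R.

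In TLR4-K730R LPS libraries the outer exon of Dusp3 measured 12.9 and 13.6 FPKM in replicates 1 and 2 and was listed at 0 in replicate 3, where the inner exon was at 7.86 FPKM. The same library stood apart for Dusp16. Its inner first exon, from 134758619 to 134758720 on chromosome 6, was at 11.5 FPKM there and its outer first exon at 1.57 FPKM. In the other 8 LPS libraries the outer first exon of Dusp16 measured 10.1 to 16.0 FPKM and the inner one 0.278 to 2.10 FPKM. The summed levels of the first exons of Dusp16 in that library, 14.3 FPKM, lay within the range of the other LPS libraries, whereas the sum of Dusp3, 7.97 FPKM, was the lowest of all 18 libraries.

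**Figure D3:**
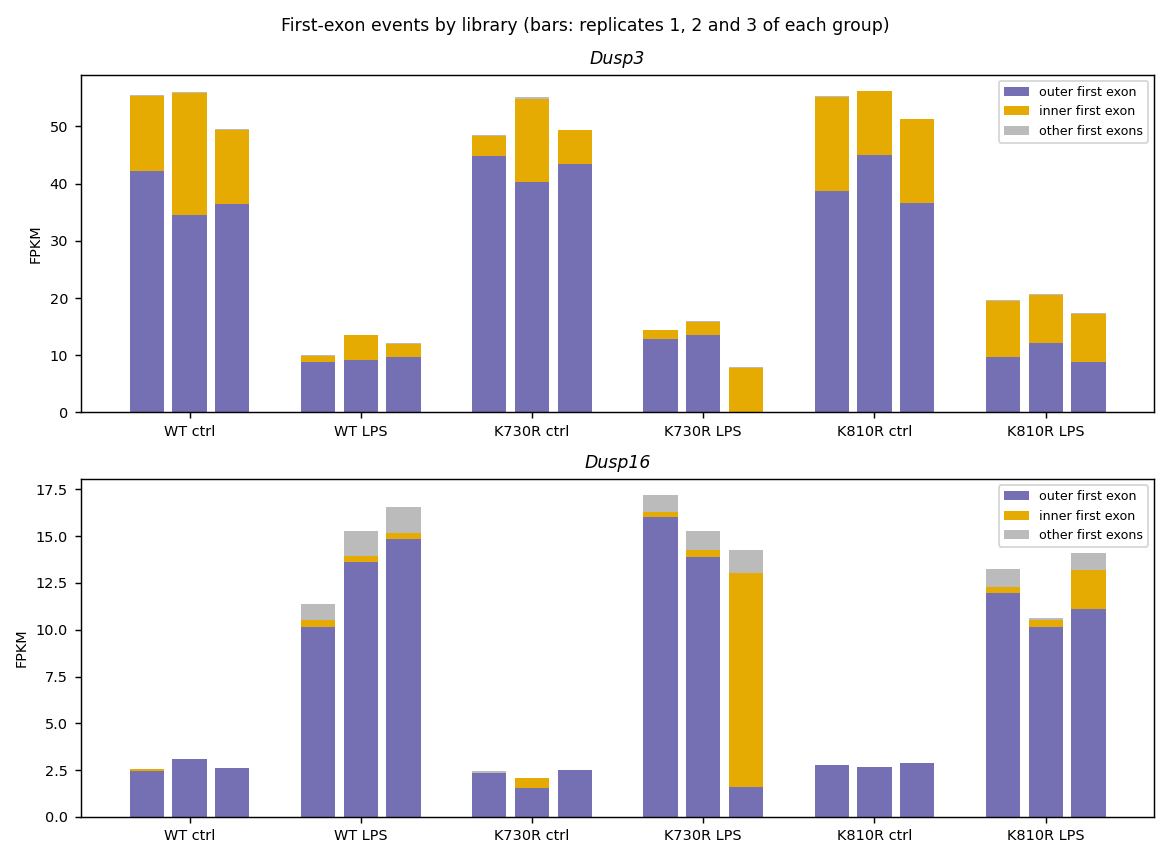
First-exon events of Dusp3 (upper panel) and Dusp16 (lower panel) in each library, in FPKM (y axis, from 0), stacked by outer, inner and other first exons, with 3 bars per group for replicates 1, 2 and 3. The inner exon of Dusp3 is taller in the TLR4-K810R LPS bars (8.43 to 9.88 FPKM) than in the TLR4-WT LPS bars (1.06 to 4.27 FPKM). The third TLR4-K730R LPS bar is made up mostly of the inner exon for both genes.

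The comparison of genotypes showed no member past the threshold. In control macrophages 0 of the 9 passed for TLR4-K730R against TLR4-WT (0.268% of tested genes did), TLR4-K810R against TLR4-WT (1.58%) and TLR4-K810R against TLR4-K730R (0.0824%), by limma with an adjusted p below 0.01. Each of these 3 comparisons had 1 member with an unadjusted p below 0.05, against 7.7%, 14.1% and 10.4% of tested genes. These were Dusp5 in TLR4-K730R against TLR4-WT (log2 difference -0.93, limma adjusted p = 0.483) and in TLR4-K810R against TLR4-K730R (0.95, adjusted p = 0.291), which share the library listed at 0. Without that library the 2 differences were -0.33 (adjusted p = 0.861) and 0.35 (adjusted p = 0.558). The other was Dusp1 in TLR4-K810R against TLR4-WT, with a log2 difference of -0.59 (95% interval -1.02 to -0.16, adjusted p = 0.159). Control libraries of Dusp1 measured 42.4 FPKM or more in TLR4-WT, and at most 36.5 FPKM in TLR4-K730R or 33.4 FPKM in TLR4-K810R. Libraries of TLR4-K730R and TLR4-WT did not overlap for 3 of the 9 members (Dusp1, Dusp5 and Dusp16), against 16.4% of tested genes. For TLR4-K810R and TLR4-WT this held for 1 (Dusp1), against 20.8%, and between the mutants for 3 (Dusp5, Dusp10 and Dusp16), against 18.7%. Intestinal epithelial markers summed to at most 0.594 FPKM in TLR4-WT control libraries, to 6.56 to 31.8 FPKM in TLR4-K730R and to 9.77 to 47.7 FPKM in TLR4-K810R control libraries. Of 5 tested mesothelial and fibroblast markers, 3 passed the threshold with higher levels in TLR4-K810R than in TLR4-WT control macrophages, and all 5 had an unadjusted p below 0.05 there and between the mutants. Of 3 tested neutrophil markers, 1 passed with a lower level in TLR4-K730R than in TLR4-WT control macrophages. In that comparison 2 of 2 mast cell markers (median difference -0.80) and 3 of 3 intestinal epithelial markers (median 2.67) had an unadjusted p below 0.05. So did 1 of 2 B cell, 1 of 5 mesothelial and fibroblast and 1 of 6 macrophage markers. In TLR4-K810R against TLR4-WT control macrophages 1 of the 3 intestinal epithelial markers passed the threshold with a higher level. The part of these cells in the values of Dusp1 and Dusp5 was not tested.

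After LPS the TLR4-K730R and TLR4-WT libraries lay in the same range for these genes. No member passed the threshold or an unadjusted p below 0.05, in a comparison where limma called 0% of tested genes and 7.69% had an unadjusted p below 0.05. Libraries overlapped for all 9 members, against 10.9% of tested genes without overlap. The 9 differences lay between -0.12 and 0.29 on the log2(FPKM + 1) scale, and their 95% intervals together reached from -0.77 to 0.77.

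After LPS 0 of the 9 members passed the threshold for TLR4-K810R against TLR4-WT, where 0.134% of tested genes did, but several lay apart. Libraries did not overlap for 6 of the 9 members (Dusp1, Dusp2, Dusp3, Dusp4, Dusp5 and Dusp6), against 25.3% of tested genes, and 4 of the 9 had an unadjusted p below 0.05, against 21.8%. For Dusp3 the TLR4-K810R libraries lay above those of TLR4-WT, with a log2 difference of 0.65 (95% interval 0.26 to 1.04, limma adjusted p = 0.0682). The difference of Dusp6 was 0.39 (0.03 to 0.74, adjusted p = 0.195), and 0.24 with median-of-ratios scaling (adjusted p = 0.357). For Dusp1 the TLR4-K810R libraries lay below, with a log2 difference of -0.62 (-1.05 to -0.19, adjusted p = 0.102), and Dusp2 too, with -0.45 (-0.90 to -0.01, adjusted p = 0.219). With library weights Dusp3 passed the threshold, at 0.71 and an adjusted p of 0.00860. Median-of-ratios scaling gave 0.51 for it (adjusted p = 0.130), and it stayed uncalled in 17 of 18 alternatives. Summed mesothelial and fibroblast markers, all 6 with a value, were 71.6 to 184 FPKM in TLR4-K810R control libraries and 16.3 to 30.4 FPKM in TLR4-WT control libraries. After LPS they were 64.6 to 76.7 and 26.9 to 92.1 FPKM, with 0 of 5 tested at an unadjusted p below 0.05. Both tested mast cell markers (median difference -0.77), 2 of 6 macrophage markers (median 0.14) and 1 of 2 B cell markers (median -0.55) had one in this comparison. The part of other cells in these differences was not tested.

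TLR4-K810R against TLR4-K730R after LPS shares the TLR4-K810R libraries with that comparison, so the values are given side by side. Again 0 of the 9 passed (0.0618% of tested genes did), 2 had an unadjusted p below 0.05 (18.8%) and 4 did not overlap (Dusp1, Dusp3, Dusp5 and Dusp16, against 25.8%). The difference was 0.60 for Dusp3 (limma adjusted p = 0.0954) and -0.50 for Dusp1 (adjusted p = 0.202), on the log2(FPKM + 1) scale. Without LPS replicate 3 of TLR4-K730R they were 0.32 and -0.22 (adjusted p = 0.263 and 0.613). Mesothelial and fibroblast markers set these groups apart, with sums of 64.6 to 76.7 FPKM in TLR4-K810R and 29.2 to 30.5 FPKM in TLR4-K730R LPS libraries and an unadjusted p below 0.05 for 4 of 5 tested. Intestinal epithelial markers did so in the other direction, with 0.127 to 4.74 FPKM against 7.56 to 11.3 FPKM and 2 of 3 tested. Their part in the values of Dusp3 and Dusp1 was not tested.

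The size of the LPS response was compared between genotypes in the same limma fit. For no member did the response differ past the threshold in TLR4-K730R against TLR4-WT (0.0412% of tested genes passed), TLR4-K810R against TLR4-WT (0.124%) or TLR4-K810R against TLR4-K730R (0.0103%). At an unadjusted p below 0.05 there were 0, 1 and 3 members, against 7.02%, 13.2% and 8.63% of tested genes. The 1 was Dusp3, whose fall was smaller in TLR4-K810R than in TLR4-WT by 0.63 (95% interval 0.08 to 1.18, adjusted p = 0.308). In that comparison the response of 5 of 5 tested mesothelial and fibroblast markers (median -1.76) and of 3 of 3 tested intestinal epithelial markers (median -3.21) also had an unadjusted p below 0.05. So did 3 of 6 macrophage markers (median 0.42), 2 of 3 neutrophil markers (median 0.32) and 1 of 2 B cell markers (median -0.26), and the part of these in the value of Dusp3 was not tested. The 3 were Dusp5 (-1.31, adjusted p = 0.469), Dusp10 (-0.66, 0.530) and Dusp16 (-0.47, 0.561). Without TLR4-K730R control replicate 1, listed at 0 for Dusp5, the value of Dusp5 was -0.72 (adjusted p = 0.505), and with first-exon events alone that of Dusp10 was -0.31 (adjusted p = 0.881). Between the mutants 1 of 5 mesothelial and fibroblast, 2 of 3 intestinal epithelial and 2 of 6 macrophage markers had an unadjusted p below 0.05. The intervals of these differences of responses reached from -2.33 to 1.90 over the 9 members and 3 comparisons. Where a response was called in 1 genotype and not in another, as for Dusp2, Dusp5, Dusp7 and Dusp10, the difference between the genotypes was thus not called.

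**Figure D4:**
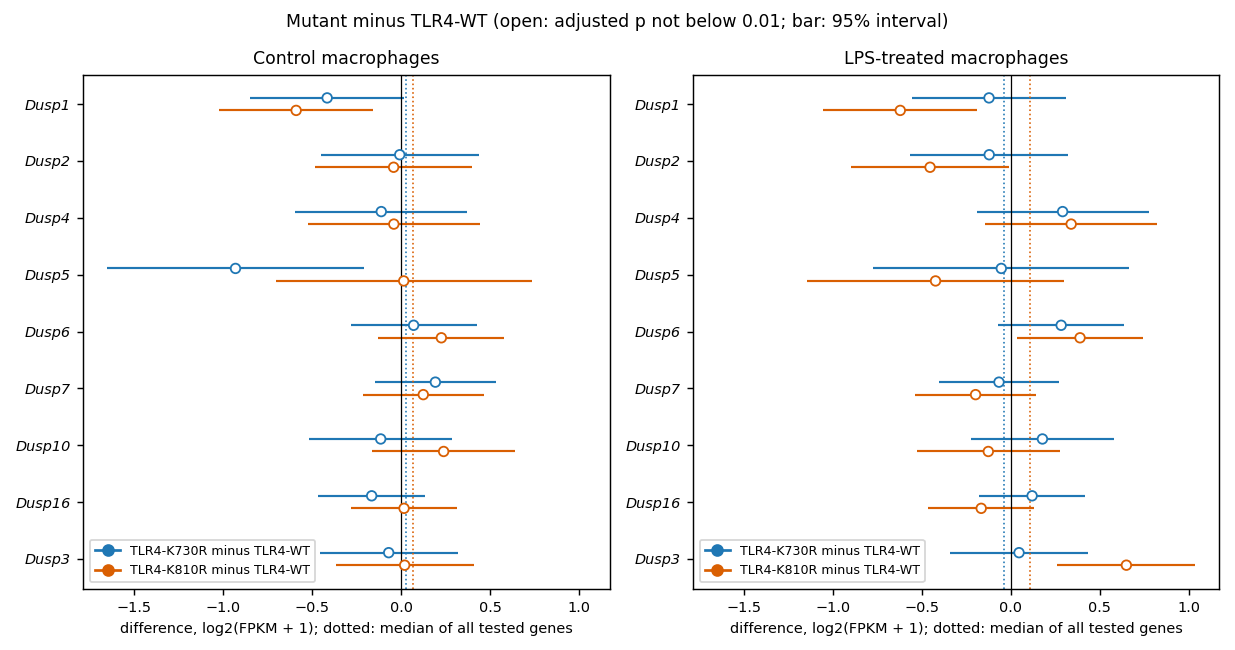
TLR4-K730R minus TLR4-WT and TLR4-K810R minus TLR4-WT for each of the 9 genes (y axis) on the log2(FPKM + 1) scale (x axis), in control (left) and LPS-treated macrophages (right), with 95% intervals from limma and dotted lines at the median of all tested genes. All points are open because no adjusted p was below 0.01. Dusp3 lies farthest to the right (0.65) and Dusp1 farthest to the left (-0.62) for TLR4-K810R after LPS.

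Libraries of a group did not rank alike for all members. LPS replicate 3 of TLR4-WT had the lowest Dusp1 of its group and the highest Dusp4, Dusp6 and Dusp16. LPS replicate 3 of TLR4-K730R had the highest Dusp1, Dusp2 and Dusp5 of its group and the lowest Dusp3, Dusp4, Dusp6 and Dusp16.

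The other genes of the MAP kinase pathway are given beside the shares over all tested genes, and for both the balance of rises and falls moved with the scale of the libraries. Of 43 tested genes on 7 lists, 6 rose and 11 fell in TLR4-WT, 8 rose and 11 fell in TLR4-K730R, and 6 rose and 7 fell in TLR4-K810R, with median differences of -0.13, -0.21 and -0.08. Over all tested genes the shares with a rise were 10.4%, 9.32% and 9.08% in the same order of genotypes, and those with a fall 23.9%, 26.5% and 19.7%. With median-of-ratios scaling, where 42 could be tested, 10 rose and 7 fell for TLR4-WT and again for TLR4-K730R, while 8 rose and 4 fell for TLR4-K810R. At that scale the shares over all 9645 tested genes were 15.5%, 15.5% and 12.4% for a rise and 14.2%, 13.5% and 11.7% for a fall. Between genotypes 0 of the 43 passed the threshold by limma in any of the 9 comparisons (0% to 1.58% of all tested genes did), and 3 to 9 had an unadjusted p below 0.05, against 7.02% to 21.8% of all tested genes. Of the 7 tested MAP kinases themselves 0 passed it in TLR4-WT and in TLR4-K810R, with 2 at an unadjusted p below 0.05 in each, while 1, the ERK gene Mapk3, passed in TLR4-K730R. Its differences were -0.73 for TLR4-WT, -1.04 for TLR4-K730R and -0.77 for TLR4-K810R (limma adjusted p = 0.0180, 0.00174 and 0.0157), with LPS libraries below control libraries in each genotype, and the TLR4-K730R call was lost with median-of-ratios scaling (adjusted p = 0.0278). Among the 6 MAP kinase kinases, Map2k1, which activates ERK, rose from 37.9 ± 0.938 to 111.7 ± 6.89 FPKM in TLR4-WT, a log2 difference of 1.53 (limma adjusted p = 2.48e-09). Map2k5, the activator of ERK5, fell by 1.01 (adjusted p = 0.000139).

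Of the 10 genes of the MAP3K tier and its adaptors, 2 rose and 3 fell in TLR4-WT, against 10.4% and 23.9% of all tested genes, and with median-of-ratios scaling 4 rose and 0 fell, against 15.5% and 14.2%. Map3k5, which activates the JNK and p38 branches under stress, rose by 0.91 and Map3k8, which activates the ERK branch downstream of TLR4, by 0.64, with limma adjusted p of 0.00132 and 0.00357. The difference of Map3k8 was 0.22 in TLR4-K730R (adjusted p = 0.267) and 0.08 in TLR4-K810R (adjusted p = 0.730), with overlapping control and LPS libraries in both. Median-of-ratios scaling gave 0.93, 0.58 and 0.32 for Map3k8 in TLR4-WT, TLR4-K730R and TLR4-K810R (limma adjusted p = 0.000407, 0.0132 and 0.180). No gene of this list differed past the threshold in its response between genotypes. Tab1, a partner of the kinase Map3k7, fell by 0.69 and Map3k3 by 0.56, with adjusted p of 0.000297 and 0.000677, and Map3k7 itself was the third to fall. With median-of-ratios scaling these 3 falls were not called (adjusted p = 0.0183, 0.0545 and 0.0863). Of the 10 kinases activated by MAP kinases, 2 rose and 4 fell. The risers were Mapkapk2, the p38-activated kinase that stabilises cytokine mRNAs (1.23, adjusted p = 1.08e-08), and Rps6ka4, a nuclear kinase downstream of p38 and ERK (1.21, adjusted p = 2.91e-05). Mknk2 and Mknk1, which phosphorylate the translation factor eIF4E, fell by 1.70 and 1.58 (adjusted p = 2.13e-08 and 4.90e-06), and the other falls were those of Rps6ka1 and Rps6ka2. Spred1, an inhibitor of the ERK cascade, rose by 1.54 (adjusted p = 3.06e-06), as 1 of 2 tested feedback inhibitors of ERK. Of 7 tested dual-specificity phosphatases outside the 9, 0 rose and 3 fell, against the same background of 10.4% and 23.9%, with Dusp13 at -1.18 and Dusp22 at -1.13 (adjusted p = 0.000279 and 3.82e-05) and Dusp18 as the third. With median-of-ratios scaling the falls of Dusp13 and Dusp22 were called and that of Dusp18 was not (adjusted p = 0.0200). Ptpn7, the 1 tested tyrosine phosphatase with a kinase interaction motif, was at -0.13 in TLR4-WT (limma adjusted p = 0.523), where that scaling gave 0.19, rose in TLR4-K730R by 0.54 (adjusted p = 0.00771) and was at 0.43 in TLR4-K810R (adjusted p = 0.0345), which passed with that scaling (adjusted p = 0.00179). Its response in TLR4-K730R against TLR4-WT differed with an adjusted p of 0.532.

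For the 6 members called in TLR4-WT, the genes with the most similar pattern were found by Pearson correlation of log2(FPKM + 1) over the 18 libraries, which share their groups, and are given as a description. Dusp16 was followed most closely by Fosl2 (r = 0.995), Tnfsf15 (0.993) and Il1a (0.992), and Dusp3 by Arrb1 (0.986), Pdxk (0.986) and Snx9 (0.986). For Dusp6 they were Cxcl1 (0.976), Psmd7 (0.975) and Lox (0.970), and for Dusp4 they were Syk (0.966), Nploc4 (0.952) and Surf4 (0.945). For Dusp1 they were Tbc1d9 (0.962), Fbxw17 (0.959) and H2-M3 (0.957), and for Dusp2 they were Sik3 (0.952), Naaa (0.939) and Mtmr7 (0.930).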

How the data were processed

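RNA-seq libraries of peritoneal macrophages were grouped by the genotype and treatment in the sample labels. For each library the authors deposited FPKM, normalised for length and fragments, in 1 row per transcript event of 20 kinds. The submitters' processing notes name hg18, a human build, whereas the gene numbers and coordinates match mouse GRCm38 (14126 of 14138 numbers found in GENCODE M21). The aligner is not given in the sources used here. Only events lying on their gene and its strand were used, which left out 5.98% of the end-event FPKM, and the larger of the first-exon and last-exon sums was taken. An event that is not listed counts as 0 and may still be expressed.

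Tests used limma 3.58.1 in R 4.3.3 on log2(FPKM + 1), with an intensity trend and 6 group means, for 9707 genes that reached 1 FPKM in 3 or more libraries. Adjustment was by Benjamini-Hochberg within each comparison, at an adjusted p below 0.01. The deposited FPKM gave no reads, so no count test was run. Differences on the log2(FPKM + 1) scale understate the change of low genes. The motif search was checked on short made-up sequences. Python 3.11.15 and pandas 2.3.3 served for the values per gene.

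The members and lists were chosen with earlier results of these data known. All 9 members are named. From each of 7 pathway lists, at most the 2 largest rises and 2 largest falls called in TLR4-WT without overlap of libraries are named, and for each member called in TLR4-WT the 3 genes of highest correlation, while Ptpn7, Mapk3, Map3k7, Rps6ka1, Rps6ka2, Dusp18 and single marker genes were named after their values were seen. The 8 marker lists are given as sums. Alternatives covered the pseudocount, filters, scaling, trend, library weights, the replicate block, the groups in the fit, the threshold, the events used and each left-out library. Promoter windows came from RefSeq on GRCm38.p6.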

Additional observations from a re-analysis of the deposited data

How the results depend on the processing

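Members called changed by more than 1.5 times in 3 cases. With last-exon events alone, where 6 members could be tested because Dusp1 and Dusp5 have none and Dusp7 did not pass the filter, 4 members were called with LPS in TLR4-K730R in place of 8 and 3 in TLR4-K810R in place of 7. With library weights 1 member, Dusp3, was called for TLR4-K810R against TLR4-WT after LPS in place of 0. Over all genes that comparison then gave 223 rises and 143 falls, against 5 and 8, and 0 when only these groups were fitted. Leaving out 1 library gave 4 to 6 members called with LPS in TLR4-WT, 6 to 8 in TLR4-K730R, 5 to 6 in TLR4-K810R, and 0 in each comparison between genotypes. Among the responses to LPS, the direction turned for Dusp10 in TLR4-K730R, to 0.13 with median-of-ratios scaling and 0.021 without control replicate 1 (-0.19 to 0.021 with 1 library left out), and for Dusp5 in TLR4-K810R, to 0.16 with that scaling and 0.031 without control replicate 3 (-0.11 to 0.031), and the cause was not tested. Between genotypes median-of-ratios scaling turned 5 of 54 member differences, all at most 0.16 in size and none past the threshold. With the replicate number as a replicate block, 6, 8 and 6 members were called with LPS in TLR4-WT, TLR4-K730R and TLR4-K810R. Libraries of the same number did not pair, as the correlations of their deviations lay between -0.32 and 0.09. The unknown depth and 3 libraries per group limit these values.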
